A study of Mus musculus with 8 samples.

Results

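The heat shock chaperones described here are 10 genes chosen by name: *Hspa1a*, *Hspa1b*, *Hspa8*, *Hsph1*, *Hsp90aa1*, *Hsp90ab1*, *Hspb1*, *Hspb8*, *Hspd1* and *Hspe1*. All 10 were present among the 24063 genes in the transcript tables, each as 1 transcript, and all 10 were among the 16557 genes with enough counts to be tested. They were measured by RNA-Seq in 8 cultures of mouse tubuloids, epithelial tubes and spheres that form when pieces of postnatal kidney tubule are embedded in Matrigel. The GDNF group (cultures 6, 12, 17 and 22) received the growth factor GDNF as a 24 h pulse after plating, and the control group (cultures 3, 7, 14 and 21) did not. GDNF acts through the Ret receptor in the outgrowth of the collecting duct system, and the comparison addresses what the pulse leaves behind in the RNA of tubuloids collected on culture day 7. All cultures came from kidneys labelled as postnatal day 7-10, from mice with the genotype *Pkd2*fl/fl *Pax8*rtTA TetOCre mTmG, and all grew in medium enriched with growth factors. The controls thus carry the same floxed *Pkd2* alleles, and the *Pax8* promoter restricts the inducible Cre to renal epithelium. The labels name no doxycycline treatment for these 8 cultures.

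Heat shock proteins bind unfolded or damaged proteins and help them to fold. The cytosolic HSP70 proteins (the constitutive *Hspa8* product and the stress-induced products of *Hspa1a* and *Hspa1b*) hold short unfolded stretches and pass some clients to HSP90 (*Hsp90aa1*, *Hsp90ab1*), and *Hsph1* encodes the HSP110 protein that exchanges nucleotide on HSP70. The small heat shock proteins (*Hspb1*, *Hspb8*) keep unfolded clients from aggregating, and *Hspd1* and *Hspe1* encode the HSP60 and HSP10 parts of the mitochondrial folding chamber. In heat, oxidant stress or ischaemia, the last of which is a common injury of the kidney tubule, heat shock factor 1 binds repeats of a short unit (GAA or its reverse complement TTC) in the promoters of many of these genes.

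RefSeq promoter windows of build GRCm38.p6 were matched for 7 of the 10 genes, *Hspa1a*, *Hspa1b*, *Hspb1*, *Hspb8*, *Hspd1*, *Hspe1* and *Hsph1*. The stretches below are shown because they hold heat shock units before a start site of these windows. Those of *Hspa1a* and *Hspa1b* also show how alike these 2 genes are. Capitals mark paired heat shock units (GAANNTTC or TTCNNGAA) and the CCAAT box on either strand, which reads ATTGG on the opposite strand.
*Hspa1a*, chr17:34972157-34972406, minus strand: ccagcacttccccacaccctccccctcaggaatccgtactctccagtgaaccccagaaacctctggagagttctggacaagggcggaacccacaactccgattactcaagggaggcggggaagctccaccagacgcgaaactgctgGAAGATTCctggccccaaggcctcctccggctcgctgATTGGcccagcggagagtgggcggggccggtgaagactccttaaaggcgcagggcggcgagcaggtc
*Hspa1b*, chr17:34959239-34959488, minus strand: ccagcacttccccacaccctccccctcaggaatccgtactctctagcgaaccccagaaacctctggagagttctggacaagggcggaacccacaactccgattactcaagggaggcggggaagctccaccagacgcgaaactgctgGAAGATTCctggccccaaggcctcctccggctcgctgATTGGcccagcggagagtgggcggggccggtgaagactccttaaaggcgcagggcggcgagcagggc
*Hspb1*, chr5:135887789-135887848, plus strand: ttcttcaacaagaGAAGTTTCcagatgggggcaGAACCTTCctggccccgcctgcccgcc
*Hspe1*, chr1:55088054-55088083, plus strand: gtccgTTCTAGAACCTTCCGGAAggccccg
*Hsph1*, chr5:149636357-149636386, minus strand: tccATTGGgtagaatctTTCTCGAAggctc
The 250 bases before the start sites of *Hspa1a* and *Hspa1b* differed at 3 positions, -207, -204 and -2 counted from the start site, and both held a paired unit starting at -104 and a CCAAT box at -67. The *Hspb1* stretch held paired units starting at -117 and -97. The *Hspe1* stretch, at -94 to -65, held 4 consecutive alternating units. *Hspe1* and *Hspd1* are transcribed away from each other and their RefSeq genes overlap by 96 bp. The *Hspe1* stretch lies outside that overlap. It is also in a promoter window of *Hspd1*, and all 30 of its bases are in an annotated UTR. The *Hsph1* stretch lies before the start sites of its windows, 149636336 and 149636315. It is nevertheless inside the RefSeq gene, whose 5' end is at 149636498, and 20 of its 30 bases are in an annotated UTR.

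All 7 genes with a window held a paired unit in either arrangement (searched on both strands, where each arrangement is its own reverse complement). Counted by window it was 8 of 9, against 15.1% of 32851 mouse promoters of the same length. The 9 windows are not independent, since those of *Hspa1a* and *Hspa1b* are near copies and *Hspe1* and *Hspd1* share bases. A run of 3 alternating units, GAANNTTCNNGAA or TTCNNGAANNTTC, was found in 0.603% of promoters and in 4 of the 9 windows. These belong to 3 of the 7 genes (*Hspd1*, *Hspe1* and *Hsph1*), and in *Hsph1* the run lay only after the start site. Each such run also contains both paired arrangements. A CCAAT box was present in 5 of the 9 windows (4 of the 7 genes) and in 37.4% of promoters. The letters TATAAA were present in 0 of the 9 windows and in 13.6% of promoters. A match of letters describes the sequence and not binding.

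The deposited tables held between 72991721 and 97490625 counts per culture. For genes with many counts, counting error was thus small beside the variation between cultures. It weighs more for *Hspa1a*, which had 89 counts in control culture 14 and at most 397, in control culture 21. Control culture 3 stood apart, with a TMM scaling factor of 0.790 against 0.963 to 1.11 for the other 7 cultures. It also had 32.9% of its counts in the shortest transcripts (the lowest quartile of length), against 20.2% to 24.3% in the GDNF cultures and 23.7% to 27.6% in the other controls. All 8 kidney epithelium markers examined were detected in every culture, and their summed level ran from 357 TPM (the authors' transcript abundance per transcript length) in control culture 14 to 3179 TPM in control culture 21. In the GDNF cultures the same sum ran from 903 to 1299 TPM. Stromal markers were also present in every culture, at a summed 111 to 1030 TPM in controls and 134 to 856 TPM in GDNF cultures, whereas the endothelial markers *Pecam1*, *Cdh5*, *Kdr* and *Tek* stayed at or below 1.81 TPM and *Emcn* reached 9.04 to 30.2 TPM. The cultures were therefore mixtures whose make-up differed most among the controls, and in such bulk samples fewer cells of a type and less RNA per cell cannot be told apart.

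Per transcript length, the chaperones spanned more than 2 orders of magnitude. *Hspe1* was the most abundant, at 703 ± 108 TPM in control (SD, n = 4) and 635 ± 44.7 TPM in GDNF cultures (SD, n = 4), followed by *Hspa8* at 576 ± 74.5 and 483 ± 50.3 TPM, in the same order of groups. *Hsp90ab1* was at 449 ± 89.7 and 426 ± 43.1 TPM. *Hsp90aa1*, *Hspb1* and *Hspd1* formed a middle tier, with means over all 8 cultures of 115, 89.9 and 87.3 TPM. *Hspb8* and *Hsph1* averaged 24.6 and 22.1 TPM, and the stress-induced genes were the lowest, with *Hspa1b* at 11.2 TPM and *Hspa1a* at 1.85 TPM. Within cultures, *Hspa8* stood above *Hsp90ab1* in 8 of 8, and *Hspe1* stood above *Hspa8* in 7 of 8. The order was not settled between *Hspb1* and *Hspd1* (4 of 8 cultures) or between *Hspb8* and *Hsph1* (5 of 8). Together the 10 genes made up 1690 to 2444 TPM.

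**Figure D1:**
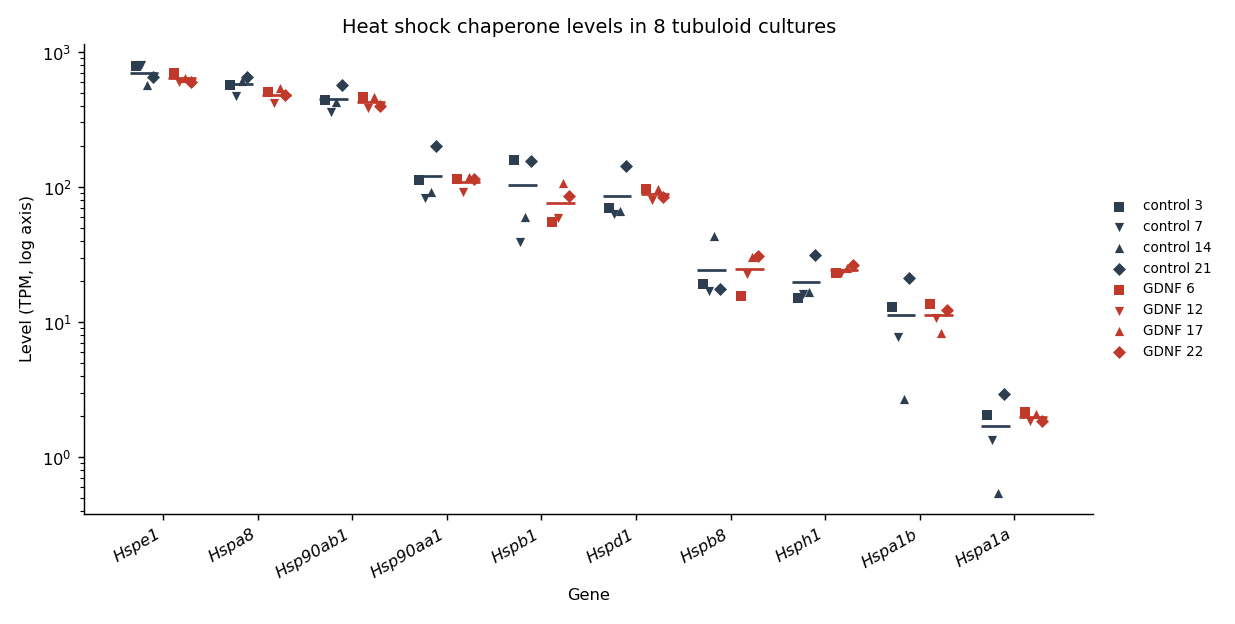
Level of each chaperone gene in TPM (log axis), with genes on the horizontal axis ordered by their mean, dark symbols for the 4 control cultures, red symbols for the 4 GDNF cultures and bars for the group means. The means run from 669 TPM for *Hspe1* to 1.85 TPM for *Hspa1a*, and the largest vertical spread belongs to the control cultures of *Hspa1a*, *Hspa1b* and *Hspb1*.

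These TPM ranks carry 1 limit for several of the genes. Of all 75-base windows in the GENCODE M21 transcript of each gene, the share that also occurs in transcripts of other genes was 68.6% for *Hspa8*, mostly in the copy *Gm15459*. It was 61.7% for *Hspa1a*, 57.7% for *Hspb1*, 55.8% for *Hspa1b*, 53.1% for *Hsp90aa1*, 33.7% for *Hspd1* and 29.1% for *Hspe1*. It was 0.736% for *Hsp90ab1* and 0% for *Hspb8* and *Hsph1*. How reads that map to several places were counted is not given in the sources used here, so the levels of the genes with large shares, and the split between *Hspa1a* and *Hspa1b*, are uncertain.

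The GDNF pulse was compared with control on counts summed per gene, with edgeR's quasi-likelihood test over all 16557 genes. No chaperone had an adjusted p of 0.05 or less (Benjamini-Hochberg), nor did any other gene (0.0% of genes). The log2 fold change was below 0 for all 10 chaperones, against 47.5% of all genes tested, with a median of -0.44 against 0.033 over all genes. At an unadjusted p of 0.05 or less, 3 of the 10 (*Hspa8*, *Hspe1* and *Hsp90ab1*) were lower in GDNF cultures and 0 were higher, where 12.9% of all genes were lower and 9.25% higher (22.1% in all). With DESeq2, an alternative count test, 1 of the 10, *Hspa8*, passed the adjusted p as lower. DESeq2 called 14.7% of the 9170 genes to which it gave an adjusted p, 12.4% lower and 2.3% higher. The count of 3 depended on single cultures: it was 1 without GDNF culture 12 (8.35% of all genes lower) or GDNF culture 22 (7.88%), 5 without control culture 7 (14.3%) and 6 without control culture 14 (13.0%). Without control culture 3 it was 2, and 8.18% of all genes were lower and 5.86% higher. Scaling by library size alone shifted the median of all genes to 0.25, left 1 of the 10 (*Hspa8*) at an unadjusted p of 0.05 or less, and moved the split of all genes to 5.13% lower and 19.9% higher.

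**Figure D2:**
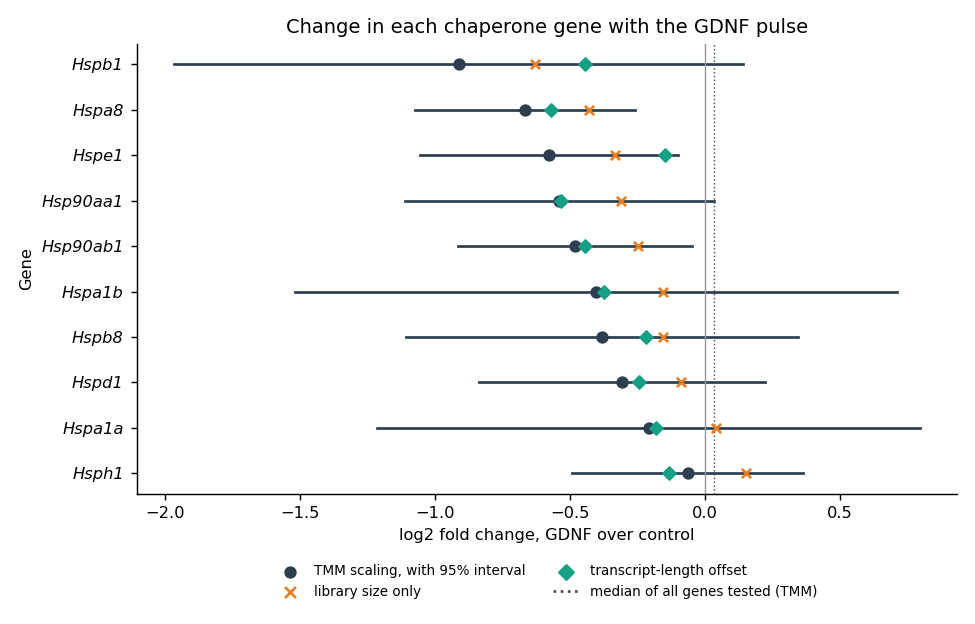
Log2 fold change of each chaperone (GDNF over control; horizontal axis) from edgeR with TMM scaling (dark points, bars for the 95% interval), with library size only (orange crosses) and with a transcript-length offset (green diamonds). The intervals of *Hspa8*, *Hspe1* and *Hsp90ab1* lie below 0, and for *Hspe1* the length offset moves the estimate from -0.58 to -0.15.

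*Hspa8*, the constitutive HSP70 (chromosome 9, 40801276 to 40805202 in the RefSeq annotation of GRCm38, with snoRNA genes in its introns), showed the clearest difference. In CPM (counts per library size, scaled by TMM), it was at 1030.2, 623, 803 and 787 CPM in control cultures 3, 7, 14 and 21, and at 564, 438, 564 and 477 CPM in GDNF cultures 6, 12, 17 and 22. Every GDNF culture was below every control culture, which held for no other chaperone and for 6.26% of all genes tested, while 6.99% had every GDNF culture above every control. The log2 fold change was -0.67 (SE 0.18, 95% interval -1.07 to -0.26, unadjusted p = 0.00439, adjusted p = 0.167, edgeR). The unadjusted p stayed at 0.05 or less in 18 of 18 alternative fits, with log2 fold changes from -0.77 to -0.43, and the adjusted p ran from 0.0220 with DESeq2 to 0.381. An exact two-sided permutation test gave p = 0.0286 on CPM, which is the smallest that 4 against 4 cultures allow, and p = 0.114 on TPM.

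The stress-induced HSP70 genes, which are neighbours on chromosome 17 (*Hspa1a* at 34969359 to 34972156, *Hspa1b* at 34956429 to 34959238), varied far more between control cultures than between GDNF cultures. *Hspa1b* was at 31.3, 13.6, 4.73 and 34.6 CPM in control cultures 3, 7, 14 and 21 and at 20.6, 14.9, 11.7 and 16.3 CPM in GDNF cultures 6, 12, 17 and 22. *Hspa1a* was at 4.87, 2.35, 0.950 and 4.73 CPM in the controls and at 3.23, 2.58, 2.91 and 2.44 CPM in the GDNF cultures, in the same order. For both genes the GDNF cultures lay inside the range of the controls, with control cultures 3 and 21 above all of them and control culture 14 below. The log2 fold changes were -0.40 (SE 0.50, 95% interval -1.52 to 0.71, adjusted p = 0.654) for *Hspa1b* and -0.21 (SE 0.45, -1.21 to 0.80, adjusted p = 0.810) for *Hspa1a* with edgeR. The direction turned with limma-voom for both genes and, for *Hspa1a*, also with library size only and without control culture 3. The estimate of *Hspa1b* was -0.15 without control culture 3 and -0.089 without control culture 21. Without control culture 14 it was -0.74 with an unadjusted p of 0.0406 (edgeR, adjusted p = 0.216). The ratio of *Hspa1b* to *Hspa1a* counts lay between 4.04 and 7.31 in the 8 cultures. A gene annotated on the opposite strand, *Gm20481*, overlaps *Hspa1a* by 2225 bp, and the library kit is not stated to mark strand, so reads from either cannot be told apart.

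*Hspa8* exceeded the summed stress-induced genes by 26.7 to 188.6 times in TPM in the control cultures, the highest being control culture 14, and by 31.6 to 51.4 times in the GDNF cultures. *Hsph1* (chromosome 5, 149616843 to 149636498) was the steadiest chaperone after GDNF, at 42.6, 40.3, 43.8 and 43.7 CPM in cultures 6, 12, 17 and 22, while the controls 3, 7, 14 and 21 were at 44.8, 34.9, 35.8 and 62.8 CPM. Its log2 fold change was -0.064 (SE 0.19, 95% interval -0.49 to 0.36, adjusted p = 0.867, edgeR). That sign turned in 3 of 18 alternative fits (limma-voom, library size only, and without control culture 21), so no direction can be given for it.

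The cytosolic HSP90 genes kept a similar ratio from culture to culture. *Hsp90ab1*, the constitutive form (chromosome 17, 45567778 to 45573261), was at 951, 557, 666 and 829 CPM in control cultures 3, 7, 14 and 21 and at 617, 480, 586 and 469 CPM in GDNF cultures 6, 12, 17 and 22. Control culture 7 lay within the GDNF range. *Hsp90aa1*, the inducible form (chromosome 12, 110691036 to 110696395), was at 273, 148, 161 and 329 CPM in the controls and at 174, 129.7, 169.8 and 153.8 CPM in the GDNF cultures, and the groups overlapped. The log2 fold change was -0.48 (SE 0.19, 95% interval -0.92 to -0.047, unadjusted p = 0.0332, adjusted p = 0.198) for *Hsp90ab1* and -0.54 (SE 0.26, -1.11 to 0.031, unadjusted p = 0.0615, adjusted p = 0.244) for *Hsp90aa1* with edgeR. *Hsp90ab1* kept an unadjusted p of 0.05 or less in 14 of 18 alternative fits and *Hsp90aa1* reached it in 4 of 18. Without control culture 21 the estimate of *Hsp90aa1* was -0.35. *Hsp90ab1* exceeded *Hsp90aa1* by 2.86 to 4.69 times in TPM in the controls and by 3.47 to 4.21 times in the GDNF cultures, ranges that overlap.

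Among the small heat shock proteins, *Hspb1* (HSP25, chromosome 5, 135887919 to 135889563) had the fold change furthest from 0 of the 10 with all cultures and TMM scaling, and a wide spread. It was at 123.02, 22.2, 33.7 and 80.7 CPM in control cultures 3, 7, 14 and 21 and at 26.8, 26.6, 48.1 and 36.5 CPM in GDNF cultures 6, 12, 17 and 22. Control cultures 3 and 21 were above all GDNF cultures, and control culture 7 was below all of them. The log2 fold change was -0.91 (SE 0.47, 95% interval -1.97 to 0.14, unadjusted p = 0.0826, adjusted p = 0.278, edgeR), and it ran from -1.20 to -0.30 over the alternative fits. It was nearer to 0 than that of *Hspa8* with limma-voom, with the length offset and without control culture 3, where it was -0.40. *Hspb8*, which works with the cochaperone *Bag3* in the disposal of misfolded protein (chromosome 5, 116408491 to 116422864), had its highest value elsewhere than the other chaperones. Control culture 14 was at 49.1 CPM, and the other controls were at 29.8 (culture 3), 19.3 (culture 7) and 18.5 CPM (culture 21). The GDNF cultures 6, 12, 17 and 22 were at 15.0, 20.6, 27.7 and 26.4 CPM, and the log2 fold change was -0.38 (SE 0.33, 95% interval -1.11 to 0.34, adjusted p = 0.499, edgeR). Without control culture 14 it was -0.0098, and without each of the other cultures it ran from -0.59 to -0.23.

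The mitochondrial pair, which shares a promoter region on chromosome 1 (*Hspd1* at 55077833 to 55088243, *Hspe1* at 55088148 to 55091317), was not at a fixed ratio in the controls. *Hspe1* was at 520.2, 381, 274 and 291 CPM in control cultures 3, 7, 14 and 21 and at 286, 232, 246 and 218 CPM in GDNF cultures 6, 12, 17 and 22. *Hspd1* was at 139, 91.5, 96.3 and 192 CPM in the controls and at 120.4, 93.6, 113 and 92.2 CPM in the GDNF cultures. In CPM, control culture 3 was thus highest for *Hspe1* and control culture 21 for *Hspd1*. The ratio of *Hspe1* to *Hspd1* in TPM ranged from 4.59 to 12.6 in the controls against 6.59 to 7.52 in the GDNF cultures. The log2 fold change was -0.58 for *Hspe1* (SE 0.21, 95% interval -1.05 to -0.10, unadjusted p = 0.0223, adjusted p = 0.180) and -0.31 for *Hspd1* (SE 0.24, -0.84 to 0.22, adjusted p = 0.457) with edgeR. Without control culture 21 the estimate of *Hspd1* was -0.096, and without control culture 3 that of *Hspe1* was -0.36. *Hspe1* has the shortest transcript of the 10 at 768 bases, *Hspb1* the next at 903 bases, and short transcripts took a larger share of counts in the controls. With an offset for transcript length the log2 fold change of *Hspe1* was -0.15 (unadjusted p = 0.228, adjusted p = 0.543) and that of *Hspb1* was -0.45, while *Hspa8*, at 2104 bases, stayed at -0.57 (edgeR, unadjusted p at most 0.0175 in any fit).

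The TPM scale gave another picture of direction. Of the 13698 genes that averaged 1 TPM or more, 78.6% had the higher mean in GDNF cultures. The exact permutation test at p of 0.05 or less called 24.1% of them, 23.4% higher and 0.679% lower. Of the 10 chaperones, 0 passed that test in either direction, and mean TPM was higher in GDNF cultures for 5 (*Hspa1a*, *Hspa1b*, *Hspb8*, *Hspd1* and *Hsph1*) and lower for the other 5. Without control culture 21, 2 chaperones passed it as higher in GDNF cultures: *Hspd1*, at 62.9 to 69.4 TPM in the remaining controls against 80.2 to 97.1 TPM, and *Hsph1*, at 15.0 to 16.5 TPM against 22.9 to 26.6 TPM. Without control culture 7, *Hspa8* passed as lower, with the remaining controls at 571 to 647 TPM and the GDNF cultures at 416 to 535 TPM. The shares of all genes passing with 1 culture left out are not given here, so these counts have no background. With all cultures, the share of all genes passing as higher was already 23.4%.

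A second feature was the spread within groups. The coefficient of variation in CPM was smaller in GDNF than in control cultures for 10 of 10 chaperones, as it was for 70.4% of all genes tested, with a median ratio of control to GDNF of 2.62 for the chaperones and 1.36 for all genes. For *Hspa1b* it was 67.8% in control and 23.1% in GDNF cultures, for *Hspa1a* 59.1% and 12.6%, and for *Hsph1* 29.0% and 3.85%. Most of the highest values were in control cultures 3 and 21. In CPM, control culture 3 was the highest of the 8 for 5 chaperones (*Hspa1a*, *Hspa8*, *Hsp90ab1*, *Hspb1* and *Hspe1*), control culture 21 for 4 (*Hspa1b*, *Hsp90aa1*, *Hspd1* and *Hsph1*) and control culture 14 for *Hspb8*. Thus 9 of 10 peaked in culture 3 or 21, against 36.3% of all genes. Culture 3 alone was the highest for 26.3% of all genes and the lowest for 25.1%. The place of culture 3 depended on the scale. In TPM, control culture 21 exceeded it for *Hspa1a* (2.92 against 2.03), *Hspa8* (647 against 571) and *Hsp90ab1* (572 against 443). Control culture 7 exceeded it for *Hspe1* in TPM (794 against 790), and of the 5 only *Hspb1* stayed highest in culture 3 (159 TPM). Control cultures 3 and 21 also had the highest summed epithelial markers, at 1908 TPM in culture 3 and 3179 TPM in culture 21. Control culture 14, the lowest for *Hspa1a* and *Hspa1b*, had the lowest epithelial sum (357 TPM) and the highest stromal sum (1030 TPM). The part of tissue make-up in the chaperone values was not tested.

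**Figure D3:**
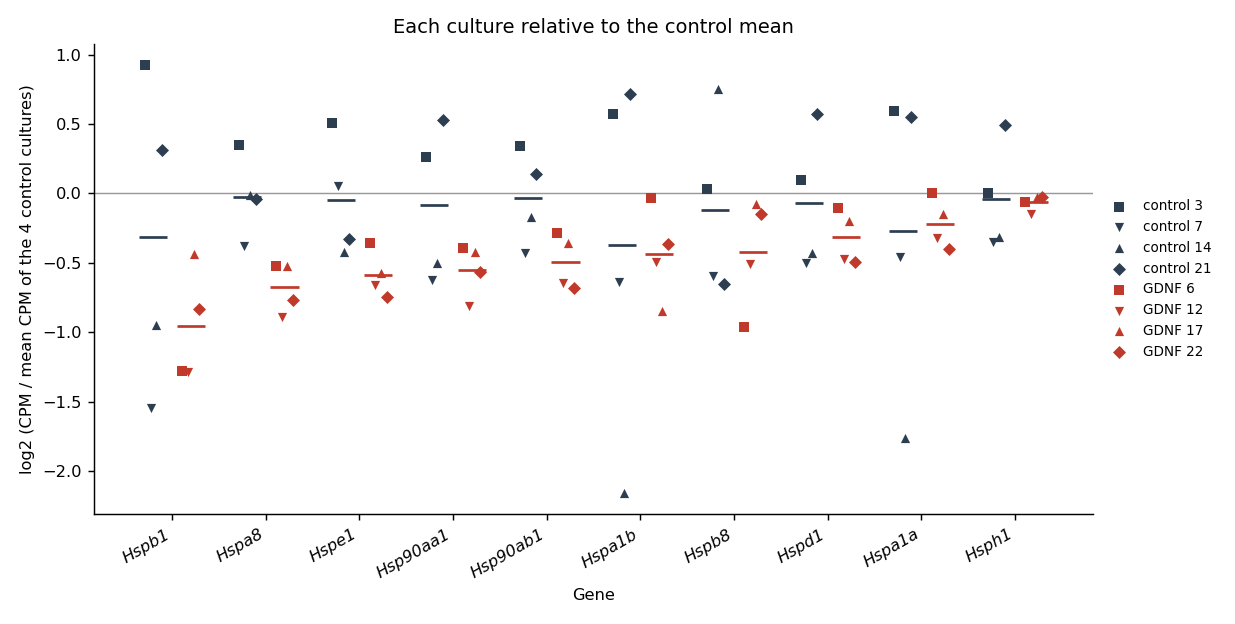
Log2 ratio of each culture's CPM to the mean CPM of the 4 control cultures (vertical axis), per chaperone, with dark symbols for control, red symbols for GDNF cultures and bars for the mean of the log2 ratios. *Hspa8* is the 1 gene whose groups do not overlap. Either control culture 3 (dark squares) or control culture 21 (dark diamonds) sits highest for 9 of the 10 genes.

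Genes that work with the chaperones were read from the same fit by lists, against a background of 12.9% of all genes lower and 9.25% higher at an unadjusted p of 0.05 or less. None of these genes passed the adjusted p by edgeR (smallest 0.167). DESeq2 called, all as lower, 6 of 8 CCT subunits, 5 of 17 HSP90 cochaperones, 3 of 7 exchange factors, 3 of 12 endoplasmic reticulum chaperones, 2 of 12 J domain proteins, 2 of 13 mitochondrial genes and 1 each of the other small heat shock proteins, the heat shock factors and their targets. Its background was 12.4% lower. Among J domain proteins, which deliver clients to HSP70, 2 of 12 were lower and 0 higher: *Dnajb1*, the main heat-induced one, at a log2 fold change of -0.58 (SE 0.18) and *Dnajb6* at -0.50 (SE 0.15). With library size only, 1 of the 12 was lower and 2 were higher, and without control culture 7, 4 were lower. The summed level of these 12 had a median of 335 TPM in control and 399 TPM in GDNF cultures. Among HSP70 nucleotide exchange factors 3 of 7 were lower, *Bag2* at -0.95 (SE 0.26), *Bag1* at -0.62 (SE 0.19) and *Bag5*, and 1, *Bag6*, was higher at 0.40 (SE 0.15). Among HSP90 cochaperones 6 of 17 were lower, led by *Sugt1* at -0.61 (SE 0.15) and *St13* at -0.73 (SE 0.18), the latter an HSP70-interacting protein, and 1 of 17 was higher, *Unc45a* at 0.40 (SE 0.15). With library size only, 2 of the 17 were lower and 3 higher, and their summed level had a median of 1116 TPM in control and 1254 TPM in GDNF cultures. The other HSP70 family members split, with 1 of 8 lower (*Hspa13*, -0.71, SE 0.26) and 1 of 8 higher (*Hspa1l*, 1.07, SE 0.33), the latter next to *Hspa1a* and at a mean of 0.683 TPM in control and 1.85 TPM in GDNF cultures.

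The list with the most uniform difference was the cytosolic chaperonin CCT, the ring that folds actin and tubulin. Of its 8 subunit genes 7 were lower and 0 higher at an unadjusted p of 0.05 or less, with a median log2 fold change of -0.64. *Cct4* stood at -0.69 (SE 0.18), *Cct7* at -0.69 (SE 0.18) and *Tcp1* at -0.55 (SE 0.17). The count was 7 of 8 with the length offset, 6 of 8 with library size only and 6 to 8 of 8 with any 1 culture left out. In the endoplasmic reticulum, whose chaperones answer to the unfolded protein response rather than to heat shock factor, 6 of 12 were lower and 0 higher (median -0.40), among them *Manf* at -0.63 (SE 0.18), *Sdf2l1* at -0.75 (SE 0.23) and the HSP70 relative *Hspa5* at -0.59 (SE 0.21), while *Canx* was at -0.13 (SE 0.15). That count was 2 of 12 with library size only and 3 of 12 without GDNF culture 12 or without control culture 14. The summed level of these 12 had a median of 1292 TPM in control and 1311 TPM in GDNF cultures. Of 13 further mitochondrial chaperones and proteases 4 were lower, *Yme1l1* at -0.52 (SE 0.15), *Grpel1* at -0.65 (SE 0.22), *Hscb* and *Dnaja3*. With library size only, 1 of the 13 was lower and 2 were higher, and the summed level had a median of 496 TPM in control and 577 TPM in GDNF cultures. The count of 4 was 2 without GDNF culture 17 or 22 or without control culture 3. Of 6 other small heat shock proteins tested 2 were lower, *Cryab* at -1.12 (SE 0.38) and *Hspb11* at -0.65 (SE 0.24), and 0 of the 6 with the length offset. The count was 1 without GDNF culture 22 or control culture 3. *Cryaa* and *Hspb3* had too few counts to be tested.

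The regulators were mixed. *Hsf1*, the factor that drives the heat shock response, was at a log2 fold change of 0.39 (SE 0.13, unadjusted p = 0.0141, adjusted p = 0.167, edgeR), with every GDNF culture above every control culture in CPM. *Hsbp1*, a heat shock factor binding protein, was at -0.60 (SE 0.21), so that 1 of 6 genes was higher and 1 lower. With library size only, 2 were higher and 0 lower. Of 5 heat shock factor targets outside the chaperones 1 was lower, *Ubb* at -0.51 (SE 0.18), where library size only gave 0 lower and 1 higher and 0 were lower without GDNF culture 12 or 17. *Ier5* was at -0.35 (SE 0.21, adjusted p = 0.339), and *Serpinh1*, the collagen chaperone, was at -0.42 (SE 0.34, adjusted p = 0.475). Of 11 immediate early genes, which rise when cells are handled or stressed, 0 were lower and 0 higher (median -0.030).

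**Figure D4:**
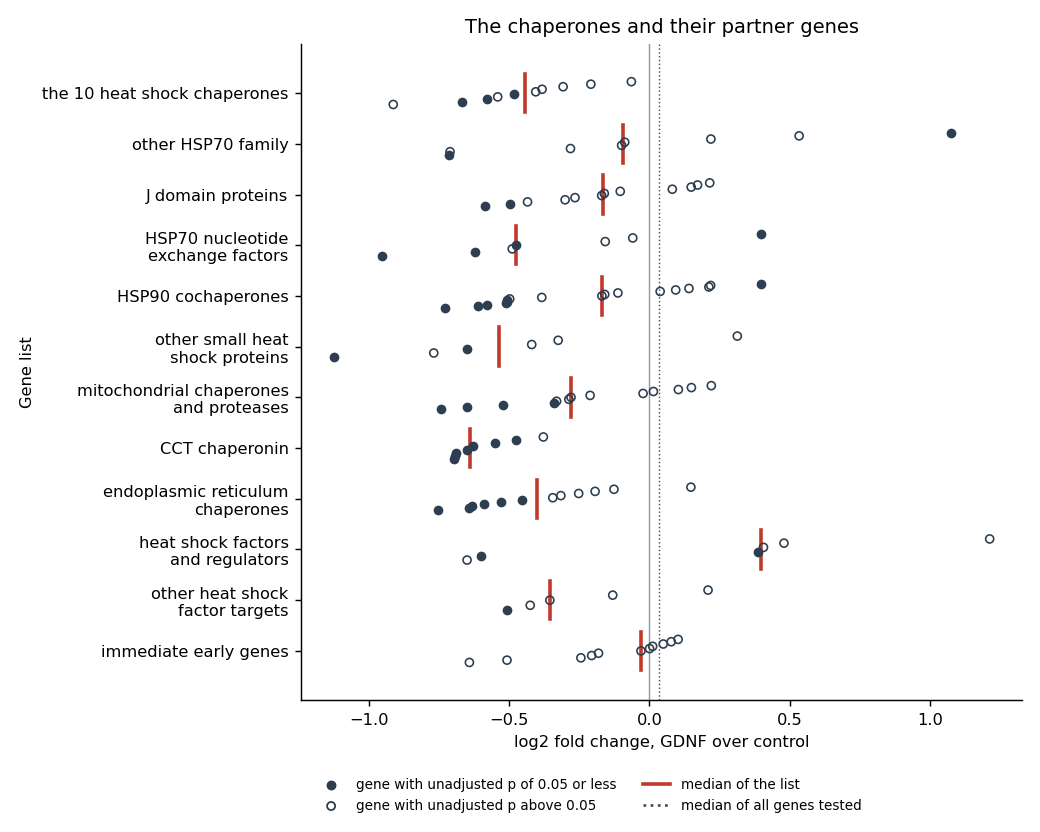
Log2 fold change (GDNF over control, horizontal axis) of the 10 heat shock chaperones and of the genes in 11 related lists, with filled points for an unadjusted p of 0.05 or less, open points for a larger p, red bars for the median of each list and a dotted line for the median of all genes tested. Every list median except that of the heat shock factors and regulators (0.40) lies to the left of the dotted line. The median of the chaperones is -0.44, that of the exchange factors -0.48, that of the other small heat shock proteins -0.53 and that of the CCT subunits -0.64.

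Among the cell type markers, 1 of 8 epithelial genes (*Krt8*) and 1 of 7 stromal genes (*Lum*) were lower, 1 of 4 tested endothelial genes (*Tek*) was higher, and 0 of 5 muscle, 0 of 4 macrophage and 0 of 5 podocyte genes were at an unadjusted p of 0.05 or less. The epithelial count was 4 of 8, with a median of -0.40, without control culture 14, the same fit in which 6 chaperones were lower, and 2 without control culture 7, where 5 chaperones were. It was 0 without any 1 of the other 6 cultures. By their RNA the cultures were of 2 kinds, with more *Xist* than Y-linked RNA in controls 3 and 7 and in GDNF 6 and 12, and the reverse in the remaining 4. The difference of the GDNF effect between these kinds of culture was tested by an interaction term with edgeR: 0 of 10 chaperones passed at an adjusted p of 0.05 or at an unadjusted p of 0.05, where 0.568% of all genes had the latter (0.32% with a lower and 0.248% with a higher ratio in the Y-linked kind). For *Hspa8* the log2 ratio of GDNF to control mean CPM was -0.72 in the *Xist* kind and -0.61 in the Y-linked kind, and for *Hspb1* it was -1.44 and -0.44, each from 2 against 2 cultures.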

How the data were processed

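Per the sample labels and the paper's methods, RNA from 8 tubuloid cultures, 4 GDNF and 4 control, was made into SMART-Seq v4 libraries after poly-A selection, and both ends were read for 75 bp. The authors mapped them to mm10 with STAR, and the submitters' processing notes also name featureCounts and DESeq2 (versions and the handling of reads with several positions are not given in the sources used here). The deposited counts are raw, 1 whole number for each RefSeq transcript, the deposited FPKM are those counts per transcript length and library total, and the deposited TPM are scaled by the authors to 1 total per culture. FPKM served only to obtain transcript lengths. Totals were 72991721 to 97490625 counts per culture. For genes with many counts, counting error is small beside a common coefficient of variation of 36.8% between cultures.

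Counts were summed per gene symbol and fitted with edgeR 4.0.16 in R 4.3.3 (filterByExpr, TMM, glmQLFit and glmQLFTest, no covariates, Benjamini-Hochberg adjustment over 16557 genes). The standard error is the absolute log2 fold change over the square root of F. Alternatives were DESeq2 1.42.0, limma-voom (limma 3.58.1), other scalings and filters, 1 transcript per gene, a per-culture spline of transcript length (5 degrees of freedom) as offset, kind of culture as covariate, and leaving out each culture. On simulated counts with 200 of 16557 genes changed, edgeR recovered 16.6% of 2-fold and 78.6% of 4-fold changes, and DESeq2 53.9% and 87.5%. For TPM, the transcript of a gene with most counts was used, and groups were compared by exact two-sided permutation tests over 70 assignments. Genes named are the 10 chaperones, and from 17 lists of 144 further genes those with the 2 smallest unadjusted p or a mean above 500 CPM may be named, as may the cell type markers. *Bag5*, *Bag6*, *Unc45a*, *Hscb* and *Dnaja3* fall outside that rule and were named after their values were seen. Genes most alike in profile were ranked by Pearson's r with the chaperones' mean standardized log2 CPM. The chaperones and lists were chosen with earlier results of these data known. The labels do not say whether cultures came from separate animals, so p-values measure the spread between cultures. The 8 libraries ran on 2 flow cell lanes with 4 in each, and the lane of each culture is not given in the sources used here, so lane and group cannot be told apart. Coordinates are from RefSeq on GRCm38, the equivalent of mm10. Figures used Python 3.11.15 and matplotlib 3.10.9.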

Additional observations from a re-analysis of the deposited data

How the results depend on the processing

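Over 18 alternative fits, 172 of 180 chaperone fold changes kept their direction without passing the adjusted threshold. Among the 172 is *Hspa1a* with DESeq2, which gave that gene no adjusted p. Another 1 passed the threshold (*Hspa8* with DESeq2, log2 fold change -0.68). The other 7 turned in direction: *Hspa1a* at 0.12 with limma-voom, 0.039 with library size only and 0.059 without control culture 3, *Hspa1b* at 0.0039 with limma-voom, and *Hsph1* at 0.010 with limma-voom, 0.15 with library size only and 0.11 without control culture 21. With 1 culture left out at a time, *Hspa1a* ran from -0.51 to 0.059 and *Hsph1* from -0.17 to 0.11. The cause of these turns was not tested. DESeq2 called 1346 genes at an adjusted p of 0.05 where edgeR called 0, and it gave 5 chaperones at an unadjusted p of 0.05 or less where edgeR gave 3 and library size only gave 1. The shares of all genes lower at that p were 15.0% with DESeq2, 12.9% with edgeR and 5.13% with library size only. Leaving out each culture in turn, the number of chaperones at that p ran from 1 to 6 with edgeR, and the chaperone median from -0.60 to -0.35. The number of all genes at that p ran from 2192 to 4104 (3665 with all cultures). The number of chaperones without overlap between groups ran from 1 to 2. With all cultures 6.26% of all genes lay lower and 6.99% higher without overlap. Those shares are not given here for 1 culture left out, so the count of 2 has no background. The permutation test on TPM passed 0 chaperones with all cultures and 0 to 2 with 1 culture left out, and on CPM it passed 1. With all cultures, 24.1% of all genes passed it on TPM, and the share with 1 culture left out is not given here. No paired analysis was possible because the groups share no culture numbers. With 4 cultures a group, an exact permutation test cannot go below p = 0.0286.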

Other observations

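The genes whose CPM followed the mean profile of the 10 chaperones most closely over the 8 cultures were *Plin2*, a lipid droplet coat protein (Pearson's r = 0.998), *Zfp622* (r = 0.994), *Tinagl1* (r = 0.991), *Nifk*, a nucleolar protein (r = 0.991), and *Golph3*, a Golgi protein (r = 0.989). These values describe a ranking over all genes with a mean of at least 5 CPM, and the 8 points share libraries, scaling and tissue make-up with the profile they were ranked against. Without control cultures 3 and 21, the r of *Plin2* was 0.966 and that of *Golph3* was 0.811. *Plin2* averaged 207 CPM in control and 101 CPM in GDNF cultures. Among the chaperones, *Hspa1a* and *Hspa1b* had r = 0.965 with each other, *Hsp90aa1* and *Hspd1* r = 0.948, and *Hspa8* and *Hsp90ab1* r = 0.940, whereas *Hspd1* and *Hspe1*, the neighbours on chromosome 1, had r = 0.330 and *Hspb8* ran from r = -0.65 with *Hspa1b* to r = 0.39 with *Hspa8*.

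Of the 20 sets of 4 CPM values (10 chaperones in each group), 0 held a culture whose gap to its nearest neighbour, over the range, exceeded Dixon's 95% critical value, where about 1 would by chance.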
